A study of Homo sapiens with 9 samples.

Results

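The genes described here build cholesterol and fatty acids, or regulate and move these lipids inside the cell. They were listed by name from their known roles, 42 of the 26475 genes in the count table. The list was made with earlier results of these data known, so its shares and medians are descriptive. Of the 42, 41 had enough counts to be tested, among 13784 tested genes in all. The remaining gene, ABCG1, a pump that exports sterols, had 0 counts in all 9 libraries, where a floor of 3 counts amounts to 0.131 to 0.148 CPM (counts relative to the total of the library, scaled by edgeR's TMM method).

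RNA of hTERT_RPE1 cells, an established line from retinal pigment epithelium that telomerase keeps dividing, was sequenced 24 h after seeding. In sh_PIP4K2B the cells carried a hairpin against PIP4K2B, a lipid kinase that acts on PtdIns5P, and sat on glass coated with fibronectin. Its 3 libraries carried hairpins #1, #2 and #3, so that replicate spread and differences between hairpins cannot be told apart here. Control cells carried an empty vector on the same coated glass, and Soft cells carried it on gels of 2.3 kPa coated with fibronectin, with 3 libraries each. The study's methods name the vector pLKO_1, while the titles number it by replicate (pLKO_1, pLKO_2 and pLKO_3) alike in Control and Soft, and what the numbers mark was not given. A treatment label names a control shRNA for these cells, so whether they expressed a hairpin is not settled. The study states in general that its experiments were repeated independently. Whether the numbered libraries of Control or of Soft came from separate cultures was not given, so the spread between them may be technical. All 9 libraries entered 1 fit that shares its estimate of the spread. The p-values of every comparison, Soft against Control included, therefore also rest on the spread between hairpins.

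Total counts ran from 19217346 to 24020799 per library. PIP4K2B lay between 120 and 124 CPM in Control, between 119 and 127 CPM in Soft, and at 48.4, 40.9 and 36.6 CPM with hairpins #1, #2 and #3. The median SD of log2 CPM between libraries was 0.08 in Control, 0.36 in sh_PIP4K2B and 0.07 in Soft over all tested genes, and 0.06, 0.39 and 0.08 over the lipid genes. Of the 10 markers of retinal pigment epithelium checked, RPE65 and TYR had under 3 counts in every library, and the 10 summed to 53.1 to 58.3 CPM in Control, 44.8 to 73.9 with the hairpins and 142 to 162 in Soft. MITF, OTX2 and the keratins KRT8 and KRT18 were expressed. Of 7 cell cycle markers, 6 were lower in sh_PIP4K2B than in Control and 4 were lower in Soft (adjusted p below 0.01, edgeR). Summed, they gave 1012 to 1046 CPM in Control, then 532 to 768 with the hairpins and 810.3 to 866 in Soft, and their part in the lipid gene values was not tested. The endothelial marker CDH5 had under 3 counts in every library, while the summed level of CDH5 and PECAM1 was at most 0.346 CPM on glass and 4.34 to 5.33 CPM in Soft.

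As background, cells make cholesterol from acetyl-CoA through mevalonate, farnesyl diphosphate and squalene, and then through a chain of sterol intermediates. The SREBP transcription factors, encoded by SREBF1 and SREBF2, are held in the endoplasmic reticulum by SCAP and INSIG proteins when sterols are plentiful, and once released and cleaved they switch on genes of sterol and fatty acid synthesis. LXR receptors answer to oxidised sterols and switch on genes that export sterols or limit their uptake. Fatty acids are made from citrate through malonyl-CoA and are then lengthened by elongases and given double bonds by desaturases.

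Promoter sequences from RefSeq (GRCh38.p14, from 250 bases before to 50 bases after each annotated start) were found for 37 of the 42 genes, in 54 windows. ACAT2, FDFT1, SQLE, ABCG1 and FASN had no entry. Both strands were searched for CACNCCAC, the core of the sterol response element that SREBP factors bind. Of the 37 genes, 9 (24.3%) held it, against 7.05% of 27305 genes and 5.87% of 35116 windows in the whole table. The E-box CACGTG was in 6 (16.2%), against 8.77% of all genes, and the CCAAT box CCAAT in 27 (73.0%), against 39.7% of all genes. No matches of different motifs shared bases in these promoters. Of the 13 genes with a promoter that were lower in Soft, 4 held the sterol response element core, 1 the E-box and 10 the CCAAT box. The 7 stretches of 30 bases that follow are on the strand of the gene, with the core or its reverse complement in capitals. They are shown for the 4 genes that were lower in Soft and held the core, for ABCA1, which was higher in both conditions, and for INSIG1 and SREBF2 of the SREBP system itself.
IDI1: ggccgggcgatGTGGCGTGgactggcgctg
SC5D: tttgcagagcaGTGGCGTGcggagcggcgg
ACACA: gttccctagtaGTGGCGTGtttcctttcta
ACSL4: gctggctctgcCACACCACcgcgcgccccc
ABCA1: ccctccaccccCACCCCACccacctccccc
INSIG1: gcgggccggcgGTGGCGTGtgcgcacgtca
SREBF2: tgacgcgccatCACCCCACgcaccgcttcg

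The stretches lie at chr10:1048983-1049012 on the minus strand for IDI1, chr11:121292773-121292802 on the plus strand for SC5D, and chr17:37299973-37300002 on the minus strand for ACACA. Those of ACSL4 and ABCA1 lie at chrX:109733355-109733384 and chr9:104928365-104928394, both on the minus strand. Those of INSIG1 and SREBF2 lie at chr7:155297659-155297688 and chr22:41832962-41832991, both on the plus strand. The stretch of SC5D begins close to the start site and runs into the transcript, and those of IDI1 and ACACA belong to starts that lie inside the gene as GENCODE v44 draws it. A match describes letters in a window, and no binding was measured.

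Soft cells had lower levels of much of the sterol pathway, of FASN and of ELOVL6. In sh_PIP4K2B the edgeR fit over all 9 libraries called 2 of the lipid genes lower and 2 higher, and these calls depended on the libraries fitted. Against Control, 19 of the 41 tested genes passed an adjusted p of 0.01 in Soft, 4 higher and 15 lower (quasi-likelihood test of edgeR, adjusted by Benjamini and Hochberg's method over all tested genes). The background in this comparison was 30.6% of all tested genes, with 15.8% higher and 14.8% lower. In sh_PIP4K2B 4 of the 41 passed, 2 higher (ABCA1 and MYLIP) and 2 lower (ACACB and ELOVL6), where 5.54% of all tested genes passed, 2.76% higher and 2.77% lower. The median log2 fold change of the lipid genes was -0.52 in Soft and -0.16 in sh_PIP4K2B, beside medians over all tested genes of 0.01 and 0.05. The Control libraries are the same in the 2 comparisons. In bulk RNA, fewer cells of a kind and less RNA per cell cannot be told apart.

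**Figure D1:**
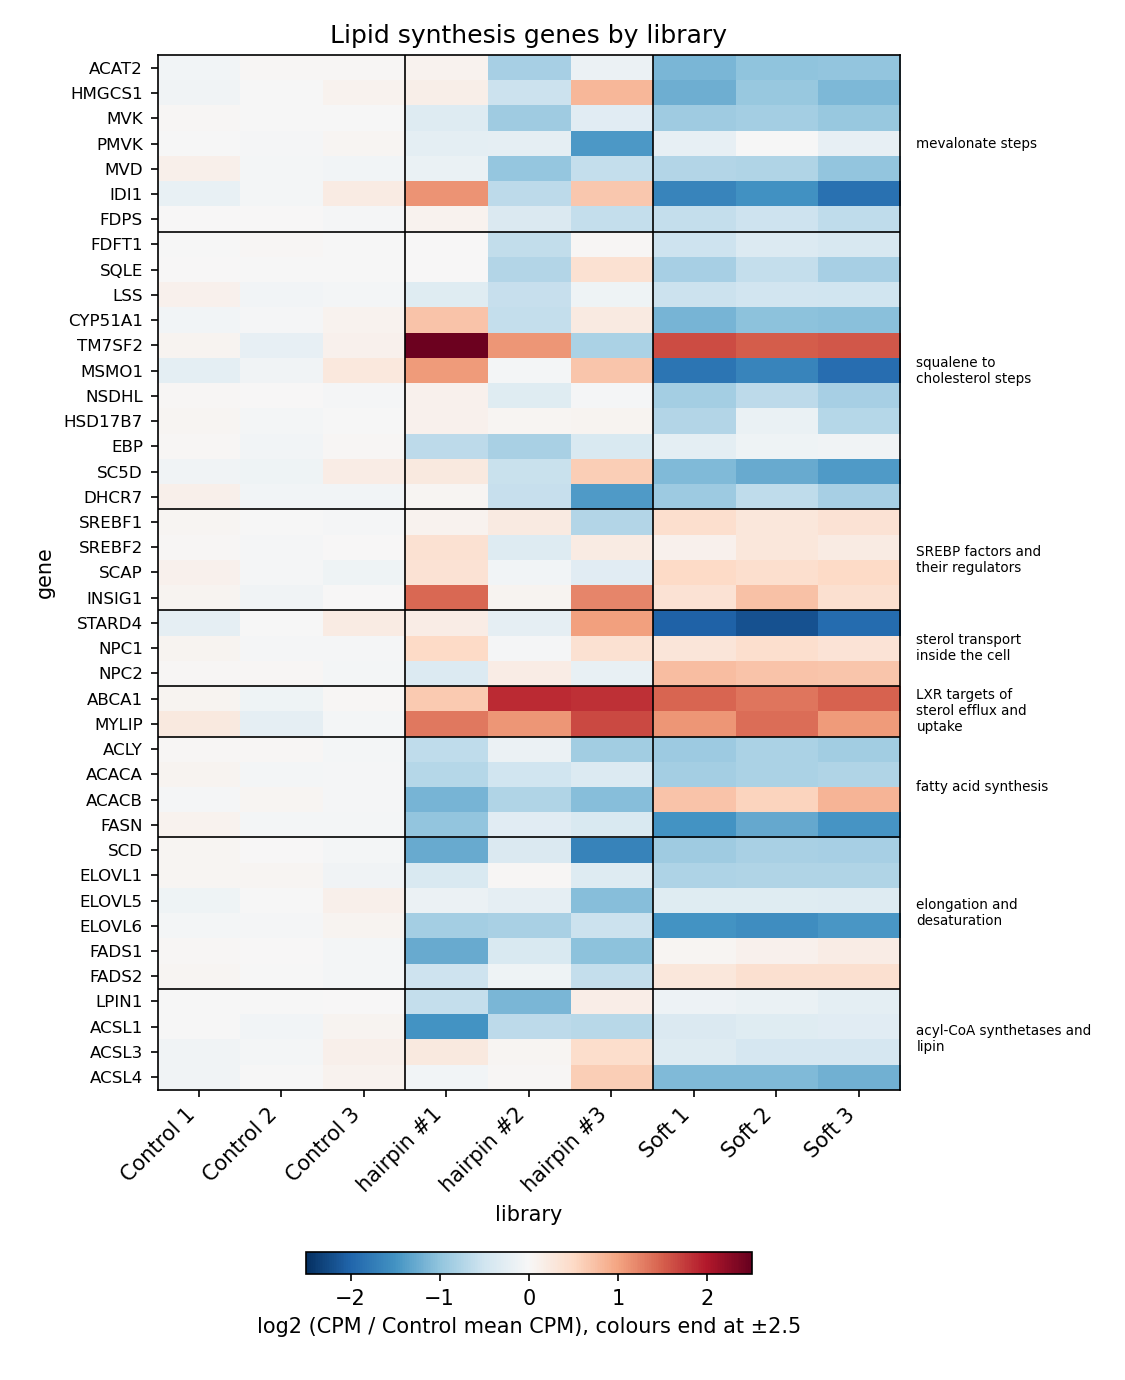
Each row is a lipid gene, grouped by role, and each column a library. Colour gives log2 of CPM over the Control mean. The sterol genes of the Soft libraries are lower in all but 1 row (TM7SF2), while the 3 hairpins differ from each other.

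The 4 calls in sh_PIP4K2B depended on which libraries were fitted. None of the 4 passed without any 1 of the Control libraries, without Soft replicate 1 or 3, or in a fit of the 6 libraries alone, and ELOVL6 alone passed without Soft replicate 2. In these fits with 0 calls 12 to 17 of the 41 genes had an unadjusted p under 0.05 (edgeR). How many of all tested genes did so was not counted, here or for the groups below. These numbers therefore cannot be read as an excess among lipid genes. Without hairpin #1, #2 or #3 the count was 8, 12 and 8, while over all tested genes it was 1660, 2013 and 1770, against 763 in the main fit. DESeq2, an alternative count test, called 10, these 4 and ACACA, ACSL1, EBP, FADS1, INSIG1 and SCD, and 2066 over all tested genes. In Soft the count was 9 to 12 without any 1 Control or Soft library, 25 to 28 without any 1 hairpin, 25 with DESeq2 and 38 in a fit of Control and Soft alone. The count over all tested genes moved as well. It was 4217 in the main fit, 5447 with DESeq2 and 9601 with Control and Soft alone. Without hairpin #1, #2 or #3 it was 6373, 5160 and 5819. The genes added by DESeq2 in Soft were HMGCS1, FDPS, SQLE, LSS, SCD and ACSL3. MVK, MSMO1, NSDHL, STARD4, ACACA, FASN, ELOVL1, ELOVL6 and ACSL4 passed in Soft under all 16 alternatives tried.

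The libraries themselves show the same contrast in spread. Of the 41 genes, 28 had all 3 Soft libraries below all 3 Control libraries and 12 had all 3 above, and 1 overlapped (PMVK). Over all tested genes these shares were 39.1% below and 40.4% above. In sh_PIP4K2B 15 genes lay wholly below Control, 2 wholly above and 24 overlapped, where 16.7% of all tested genes lay below and 17.4% above.

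The mevalonate steps were read from 7 genes, and all 7 had a log2 fold change below 0 in Soft, with a median of -0.90. ACAT2, MVK, MVD and IDI1 fell past the threshold in Soft. In sh_PIP4K2B none of the 7 passed with edgeR or DESeq2, and 2 had an unadjusted p under 0.05 (edgeR). IDI1, the isomerase that makes the second of the C5 building blocks, was at 51.0, 55.7 and 66.5 CPM in Control and at 18.3, 20.1 and 15.8 CPM in Soft. With hairpins #1, #2 and #3 it was at 126, 36.6 and 92.3 CPM. The Soft libraries lay below all others, whereas the hairpins lay on both sides of Control. In Soft the log2 fold change of IDI1 was -1.67 (SE 0.37, edgeR adjusted p = 0.0049), and the highest adjusted p over the alternatives was 0.024.

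HMGCS1, which makes HMG-CoA, was at 60.5, 63.9 and 67.8 CPM in Control and 27.3, 33.2 and 29.4 CPM in Soft, without overlap. It narrowly missed the threshold (log2 fold change -1.10, edgeR adjusted p = 0.011). With the hairpins it was at 71.1, 43.9 and 114 CPM, around the Control libraries. ACAT2, which joins acetyl-CoA into acetoacetyl-CoA, was at 68.4 ± 2.44 CPM in Control and 33.3 ± 1.84 CPM in Soft (SD, n = 3). MVK, the kinase of mevalonate, went from 24.3 ± 0.344 to 13.0 ± 0.391 CPM in Soft (SD, n = 3), and was at 17.6 ± 3.74 CPM with the hairpins (edgeR adjusted p = 0.065). MVD, a decarboxylase further along the pathway, fell to 56.8% of its Control mean in Soft. FDPS, which makes farnesyl diphosphate, did not pass (log2 fold change -0.58 in Soft, edgeR adjusted p = 0.013). PMVK, the second kinase of the pathway, was the gene whose Soft and Control libraries overlapped, at 18.5, 21.1 and 18.3 against 21.0, 20.8 and 21.8 CPM. Exons of ACAT2, HMGCS1 and FDPS overlap genes of the other strand over 36.3%, 46.7% and 41.4% of their bases, and whether strand was used in counting was not given.

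From squalene to cholesterol 11 genes were read, of which 10 had a log2 fold change below 0 in Soft, with a median of -0.74. CYP51A1, MSMO1, NSDHL and SC5D fell past the threshold in Soft. In sh_PIP4K2B none passed with edgeR, where 4 had an unadjusted p under 0.05, and EBP passed with DESeq2. MSMO1, the oxidase that starts the removal of the C4 methyl groups of the sterol ring (chromosome 4, 165327669 to 165343164, plus strand), was at 69.4, 77.4 and 98.4 CPM in Control. In Soft it was at 22.9, 26.1 and 21.8 CPM, and with hairpins #1, #2 and #3 at 172, 78.9 and 133 CPM. The Soft libraries thus lay below every Control library, and 2 of the hairpins above every one. The log2 fold change was -1.79 in Soft (SE 0.26, edgeR adjusted p = 5.4e-04) and 0.64 in sh_PIP4K2B (SE 0.25, edgeR adjusted p = 0.11).

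NSDHL, a dehydrogenase of the same C4 demethylation, fell from 44.1 ± 1.06 to 25.8 ± 2.09 CPM in Soft and was at 42.2 ± 6.07 CPM with the hairpins (SD, n = 3). SC5D, which puts in the C5 double bond, went from 38.4 ± 4.36 to 16.1 ± 1.72 CPM in Soft (SD, n = 3). CYP51A1, the lanosterol demethylase, went from 84.1 ± 4.39 to 39.9 ± 2.16 CPM (SD, n = 3), and 90.0% of the 75-mers of its transcript, 75 nt being the read length, also occur in other annotated genes, so its reads may be split. LSS, the cyclase that forms lanosterol, lay just outside the threshold in Soft (log2 fold change -0.50, edgeR adjusted p = 0.0104). FDFT1 and SQLE, which make squalene and its epoxide, had log2 fold changes of -0.42 and -0.74 in Soft and did not pass (edgeR adjusted p = 0.053 and 0.024).

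HSD17B7 and DHCR7, both reductases of late sterol steps, had log2 fold changes of -0.52 and -0.78 in Soft (edgeR adjusted p = 0.029 and 0.051). HSD17B7 shares 28.1% of its 75-mers with other genes, mainly a pseudogene. EBP, the sterol isomerase, was at 24.3, 21.7 and 29.2 CPM with the hairpins against 38.8, 36.4 and 39.0 CPM in Control, wholly below but not past the threshold (edgeR adjusted p = 0.013). In Soft EBP was at 34.4 ± 1.98 CPM (SD, n = 3), and 54.0% of its 75-mers occur in another annotated gene. TM7SF2, a sterol C14 reductase, stood apart from the other sterol genes. It was at 8.89, 7.42 and 9.22 CPM in Control, 26.4, 24.4 and 25.1 CPM in Soft, and 46.8, 18.2 and 4.89 CPM with hairpins #1, #2 and #3. The Soft libraries were close together and above Control, and the hairpins lay on both sides of Control. In Soft the gene did not pass (log2 fold change 1.57, SE 0.60, edgeR adjusted p = 0.054). That fit holds all 9 libraries, so its SE includes the spread between hairpins. Over the 16 alternatives TM7SF2 passed in Soft in 3.

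**Figure D2:**
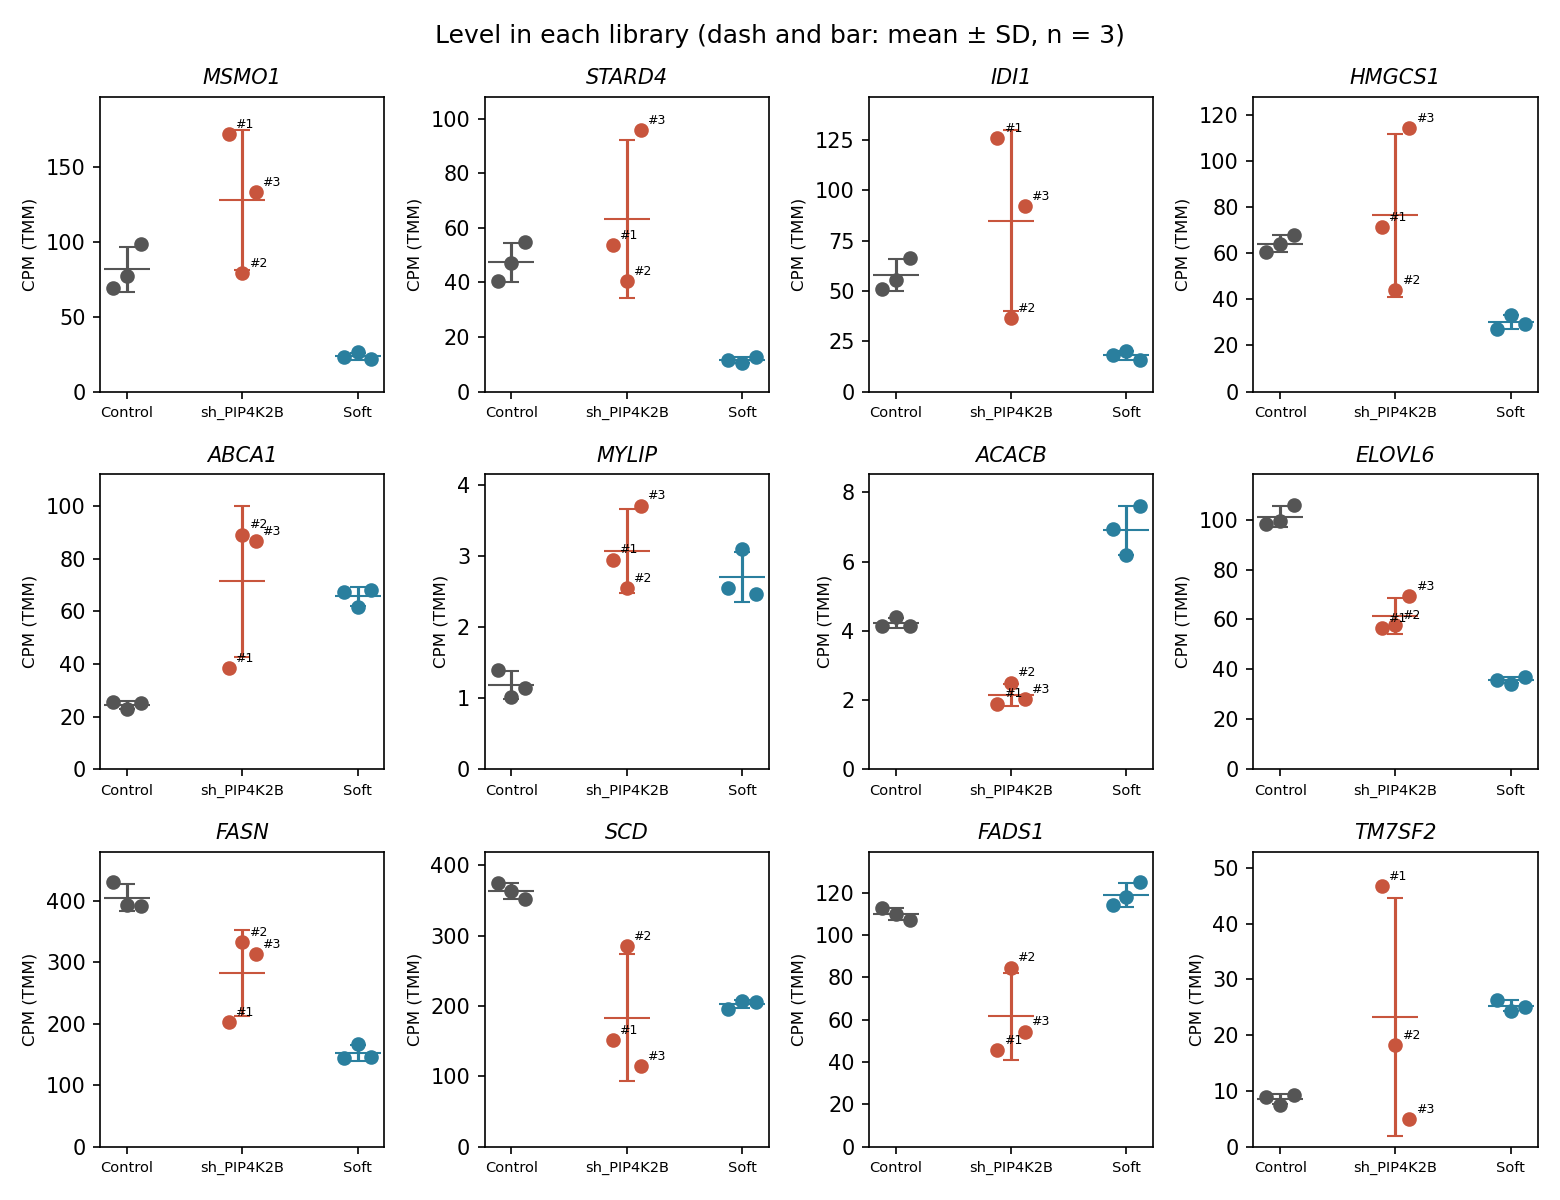
CPM (TMM-scaled) of 12 lipid genes in each library, with dots for libraries, a dash for the mean and bars for SD (n = 3). In MSMO1, STARD4 and IDI1 the Soft libraries lie below all others, and in ACACB the hairpins lie below Control and Soft above it.

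Over both stretches of the pathway, the median of the 18 sterol genes was -0.78 in Soft and -0.11 in sh_PIP4K2B (log2 fold change), with 8 lower in Soft. By library, their median log2 ratio to the Control mean was -0.84, -0.64 and -0.83 in the Soft libraries. With hairpins #1, #2 and #3 it was 0.09, -0.58 and -0.07, lowest with hairpin #2. Among the hairpins, #2 had the lowest level of 14 of the 18 genes, #3 of 4 and #1 of none, and #1 had the highest level of 10. The level of PIP4K2B in the same libraries, given above, was lowest with hairpin #3. With hairpin #2 left out of the fit, 5 lipid genes were higher and 7 lower past 0.01 in sh_PIP4K2B. That fit called 2013 of 13974 tested genes. Among the higher lipid genes were IDI1 (0.92), MSMO1 (0.90), INSIG1 (1.33) and NPC1 (0.44, log2 fold change, edgeR). Without hairpin #1 the sterol genes called were instead MVD (-0.77) and FDPS (-0.47), both lower. Without hairpin #3 they were EBP (-0.73), which was lower, and TM7SF2 (1.93), which was higher. Leaving out a hairpin moves the mean of a gene away from the level of that hairpin. These calls are therefore no evidence apart from the levels by hairpin.

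**Figure D3:**
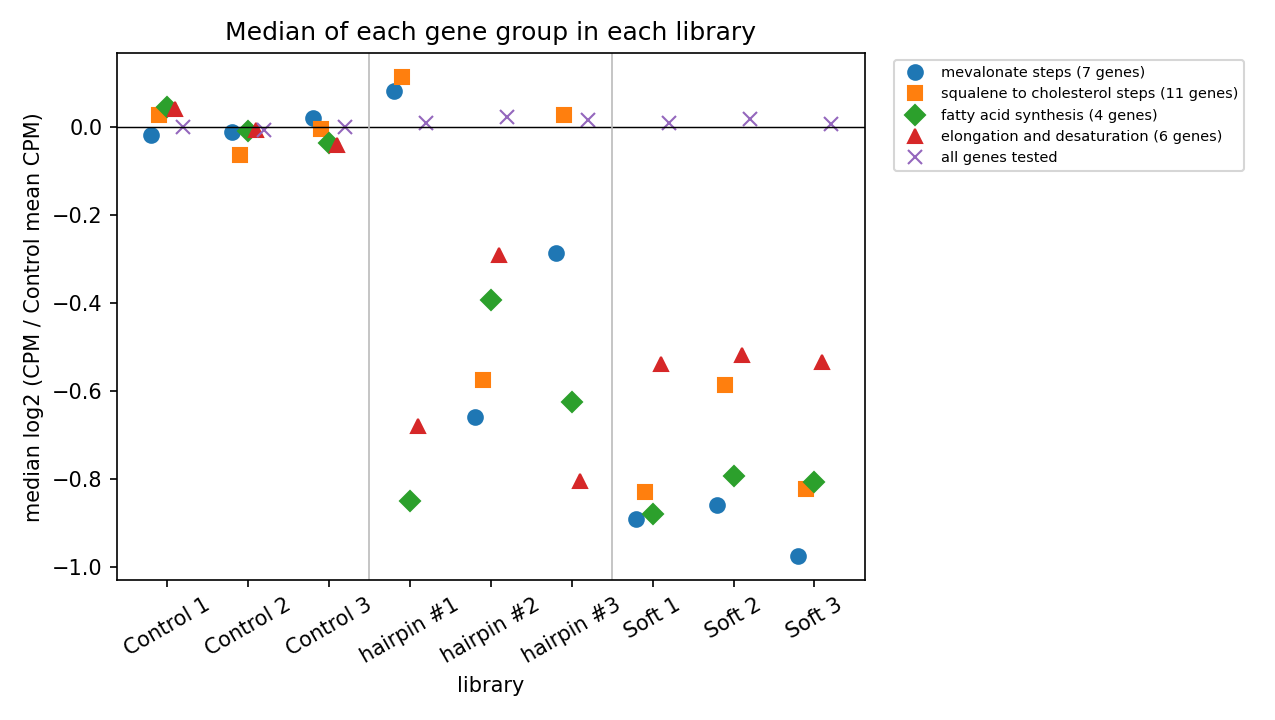
The median log2 ratio to the Control mean is plotted for 4 gene groups and for all tested genes in each library. The Soft libraries are low in all 4 groups, hairpin #2 is lowest of the hairpins for the mevalonate and the squalene to cholesterol steps, and hairpin #2 is nearest to Control for fatty acid synthesis and for elongation and desaturation.

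The 4 SREBP factors and regulators did not pass in either condition with edgeR, where 1 had an unadjusted p under 0.05 in each, and INSIG1 passed in sh_PIP4K2B with DESeq2. SREBF2, the SREBP gene tied mainly to sterol synthesis, was at 122 ± 2.68 CPM in Control, 133 ± 31.6 in sh_PIP4K2B and 140 ± 7.99 in Soft (SD, n = 3). SREBF1, tied mainly to fatty acid synthesis, was at 43.4 ± 1.49, 41.0 ± 13.1 and 55.5 ± 2.83 CPM (SD, n = 3). SCAP, the escort of SREBP proteins, stood 0.47 above Control on the log2 scale in Soft (SE 0.16, edgeR adjusted p = 0.032). INSIG1, which keeps SCAP in the endoplasmic reticulum and is itself an SREBP target, was at 27.0, 24.3 and 26.1 CPM in Control and 69.4, 26.9 and 60.4 CPM with hairpins #1, #2 and #3. Hairpins #1 and #3 were high and #2 was at the level of Control (log2 fold change 1.02, SE 0.29, edgeR adjusted p = 0.042). In Soft INSIG1 was at 33.2, 43.1 and 34.2 CPM, all above Control (log2 fold change 0.51, edgeR adjusted p = 0.18). Thus all 4 had log2 fold changes above 0 in Soft, with a median of 0.41, whereas 17 of the 18 sterol genes were below 0.

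STARD4, a soluble carrier of cholesterol between membranes (chromosome 5, 111496033 to 111512535, minus strand), had the largest fall of the 41 genes in Soft. It was at 40.4, 47.1 and 54.6 CPM in Control and at 11.6, 10.5 and 12.5 CPM in Soft, with no overlap. With hairpins #1, #2 and #3 it was at 53.5, 40.4 and 95.8 CPM, from the lowest Control level upwards. The log2 fold change was -2.04 in Soft (SE 0.29, edgeR adjusted p = 4.8e-04) and 0.42 in sh_PIP4K2B (SE 0.27, edgeR adjusted p = 0.32). NPC2, a lysosomal protein that hands cholesterol to NPC1, rose in Soft from 139 ± 4.28 to 230.1 ± 5.01 CPM (SD, n = 3; edgeR adjusted p = 0.0020). NPC2 was at 130 ± 25.2 CPM with the hairpins (SD, n = 3). NPC1, the lysosomal membrane exporter, had log2 fold changes of 0.35 in Soft and 0.30 in sh_PIP4K2B and did not pass (edgeR adjusted p = 0.058 and 0.16).

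Both tested genes of the group of LXR targets of sterol efflux and uptake, ABCA1 and MYLIP, were higher in both conditions. The activity of LXR receptors was not measured. ABCA1, which passes cholesterol to lipid-poor apolipoprotein outside the cell (chromosome 9, 104781006 to 104928155, minus strand), was at 25.6, 22.8 and 25.0 CPM in Control. It was at 38.3, 89.3 and 86.7 CPM with hairpins #1, #2 and #3, and at 67.5, 61.7 and 68.2 CPM in Soft. Every hairpin and every Soft library was above every Control library, with hairpin #1 the nearest to Control. The log2 fold change was 1.54 in sh_PIP4K2B (SE 0.27, edgeR adjusted p = 0.0063) and 1.43 in Soft (SE 0.27, edgeR adjusted p = 0.0023). MYLIP, the ubiquitin ligase that marks lipoprotein receptors for degradation (chromosome 6, 16129086 to 16148248, plus strand), was at 1.40, 1.01 and 1.14 CPM in Control. It was at 2.95, 2.55 and 3.71 CPM with the hairpins and 2.55, 3.10 and 2.46 CPM in Soft. The groups did not overlap with Control, though all these levels are low. MYLIP had log2 fold changes of 1.37 in sh_PIP4K2B (SE 0.23, edgeR adjusted p = 0.0055) and 1.19 in Soft (SE 0.23, edgeR adjusted p = 0.0028). Over the alternatives the adjusted p in sh_PIP4K2B reached 0.039 for each of ABCA1 and MYLIP. Between Soft and sh_PIP4K2B the difference was -0.12 for ABCA1 (SE 0.26) and -0.18 for MYLIP (SE 0.22) on the log2 scale, which did not pass and does not show equal levels.

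Fatty acid synthesis was read from 4 genes, and in Soft all 4 passed, ACLY, ACACA and FASN lower and ACACB higher. In sh_PIP4K2B all 4 had log2 fold changes below 0, between -0.98 and -0.51. With edgeR over all 9 libraries ACACB alone passed, and DESeq2 called ACACA as well. FASN, the synthase that makes palmitate, was at 430, 393 and 392 CPM in Control, 203, 333 and 313 CPM with the hairpins and 144, 167 and 145 CPM in Soft. The 3 conditions did not overlap, with Soft the lowest (log2 fold change -1.41, SE 0.18, edgeR adjusted p = 2.6e-04) and the hairpins between (-0.52, edgeR adjusted p = 0.073). ACLY, which splits citrate into acetyl-CoA, went from 559 ± 18.5 to 309 ± 12.7 CPM in Soft and was at 389 ± 104 CPM with the hairpins (SD, n = 3). ACACA, the cytosolic acetyl-CoA carboxylase, went from 111 ± 4.71 to 63.8 ± 2.04 CPM in Soft (SD, n = 3). With the hairpins ACACA was at 68.0, 78.3 and 87.0 CPM, all below Control, and its adjusted p was 0.014 (edgeR). ACACA passed in sh_PIP4K2B with DESeq2 and, with edgeR, without hairpin #1 or hairpin #3.

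ACACB, the mitochondrial acetyl-CoA carboxylase whose malonyl-CoA restrains fatty acid oxidation (chromosome 12, 109116587 to 109268226, plus strand), moved in opposite directions. It was at 4.14, 4.39 and 4.15 CPM in Control, 1.89, 2.50 and 2.03 CPM with hairpins #1, #2 and #3, and 6.93, 6.19 and 7.60 CPM in Soft. The 3 conditions did not overlap. The log2 fold change was -0.98 in sh_PIP4K2B (SE 0.17, edgeR adjusted p = 0.0063) and 0.71 in Soft (SE 0.16, edgeR adjusted p = 0.0063). The direct difference between Soft and sh_PIP4K2B was 1.69 (SE 0.17, edgeR adjusted p = 9.9e-05), and it passed under all 16 alternatives, with a highest adjusted p of 0.0021. Against Control the adjusted p of ACACB over the alternatives reached 0.049 in sh_PIP4K2B and 0.037 in Soft.

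Among the 6 elongases and desaturases, all 6 had log2 fold changes below 0 in sh_PIP4K2B, with a median of -0.58, and ELOVL6 passed. In Soft ELOVL1 and ELOVL6 were lower and the median was -0.53. ELOVL6, which lengthens palmitate to stearate (chromosome 4, 110045846 to 110198615, minus strand), was at 98.2, 99.6 and 106 CPM in Control. It was at 56.5, 57.8 and 69.5 CPM with the hairpins and 35.8, 34.3 and 36.8 CPM in Soft. The 3 conditions did not overlap, and Soft was the lowest. The log2 fold change was -0.72 in sh_PIP4K2B (SE 0.11, edgeR adjusted p = 0.0029) and -1.51 in Soft (SE 0.11, edgeR adjusted p = 1.5e-05). The direct difference of -0.78 (SE 0.11) passed as well (edgeR adjusted p = 4.3e-04). The adjusted p in sh_PIP4K2B reached 0.031 over the alternatives.

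ELOVL1, an elongase of long saturated chains, fell in Soft from 191 ± 9.55 to 113 ± 1.89 CPM and was at 165 ± 26.0 CPM with the hairpins (SD, n = 3). SCD, which puts the first double bond into stearate and palmitate, was at 374, 364 and 352 CPM in Control, 151, 285 and 114 CPM with the hairpins and 196, 207 and 205 CPM in Soft. All hairpin and Soft libraries were below Control, yet SCD did not pass in either with edgeR over all libraries (log2 fold change -0.99 with edgeR adjusted p = 0.038, and -0.84 with edgeR adjusted p = 0.031). DESeq2 called SCD in both, and over the 16 alternatives it passed in 2 in sh_PIP4K2B, the other one being the fit without hairpin #2 (log2 fold change -1.46, edgeR adjusted p = 5.1e-04), and in 4 in Soft. FADS1 and FADS2, the desaturases of polyunsaturated fatty acids, lay below Control in every hairpin library and above Control in every Soft library. FADS1 was at 113, 110 and 107 CPM in Control, 45.7, 84.6 and 54.4 CPM with the hairpins and 114, 118 and 125 CPM in Soft. With edgeR over all libraries neither comparison of FADS1 with Control passed, at log2 fold changes of -0.84 and 0.12, but the difference between Soft and sh_PIP4K2B did (0.95, SE 0.20, edgeR adjusted p = 0.0037). In sh_PIP4K2B FADS1 passed with DESeq2 (-0.85, adjusted p = 7.4e-04) and without hairpin #2 (-1.14, edgeR adjusted p = 5.2e-04). For FADS2 these values were -0.39 and 0.37, neither past the threshold in that fit, and the direct difference of 0.76 passed (edgeR adjusted p = 0.0017). Over the 16 alternatives FADS2 passed against Control in 1 in sh_PIP4K2B and in 3 in Soft. ELOVL5, an elongase of polyunsaturated chains, had log2 fold changes of -0.43 and -0.30 and did not pass (edgeR adjusted p = 0.18 and 0.25).

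**Figure D4:**
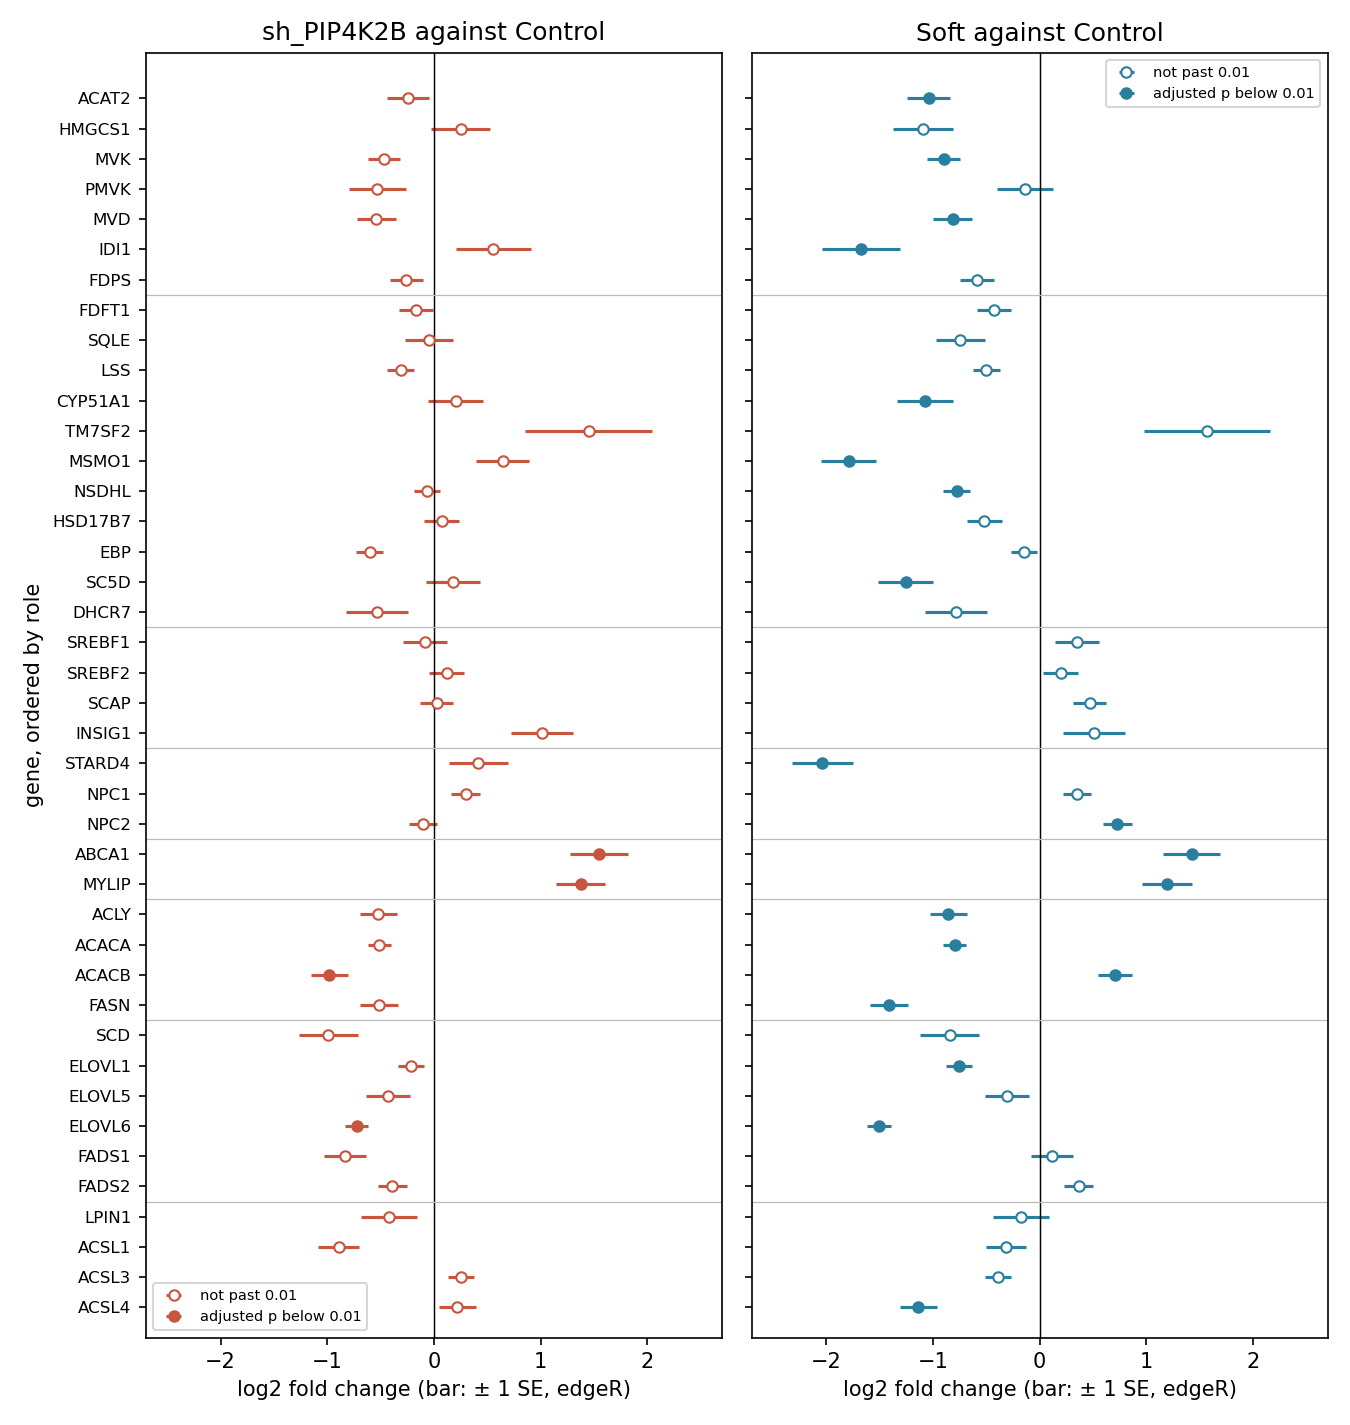
Log2 fold change against Control (edgeR) with bars of ± 1 SE for the 41 tested genes in role order, sh_PIP4K2B on the left and Soft on the right, filled where the adjusted p was below 0.01. In Soft 17 of the 18 sterol genes lie left of 0, and in sh_PIP4K2B the sterol genes lie on both sides while the 10 genes from ACLY to FADS2 lie left of it.

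Of the acyl-CoA synthetases, which charge fatty acids with coenzyme A, ACSL4 was lower in Soft. ACSL4, which prefers arachidonate, went from 149.8 ± 9.85 to 68.1 ± 2.26 CPM in Soft and was at 174 ± 47.8 CPM with the hairpins (SD, n = 3). Its log2 fold change in Soft was -1.14 (SE 0.17, edgeR adjusted p = 7.0e-04). ACSL1 was at 18.2, 32.5 and 31.7 CPM with the hairpins against 50.7, 48.8 and 53.3 CPM in Control, wholly below and close to the threshold (log2 fold change -0.89, edgeR adjusted p = 0.015, past it with DESeq2). For ACSL3 the log2 fold change was -0.39 in Soft and 0.25 in sh_PIP4K2B, and with edgeR over all libraries the direct difference alone passed (-0.64, adjusted p = 0.0024). In Soft ACSL3 passed in 4 of the 16 alternatives, DESeq2 among them. LPIN1, a phosphatidate phosphatase, had log2 fold changes of -0.18 in Soft and -0.42 in sh_PIP4K2B (edgeR adjusted p = 0.61 and 0.30).

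Soft was also tested against sh_PIP4K2B directly, which asks whether the gel and the knock-down differ in these genes. Of the 41 genes 17 passed, 4 higher and 13 lower in Soft, where 30% of all tested genes passed, 14.5% higher and 15.5% lower. The median log2 difference was -0.28, against -0.03 over all tested genes. The 4 higher in Soft were NPC2, ACACB, FADS1 and FADS2. Among the 13 lower in Soft were 7 sterol genes, with STARD4 (-2.45, SE 0.29, edgeR adjusted p = 2.1e-04) and MSMO1 (-2.44, SE 0.27, edgeR adjusted p = 1.4e-04) the largest differences, followed by IDI1 (-2.23, SE 0.37, edgeR adjusted p = 0.0012). HMGCS1 passed here (-1.35, edgeR adjusted p = 0.0040) although it missed the threshold against Control with edgeR. The count was 8 to 22 with any 1 library left out, lowest without Soft replicate 3 (8) and Soft replicate 1 (9), and 8 in a fit of these 6 libraries alone. Over all tested genes it was 2350 without Soft replicate 3, 2378 without Soft replicate 1 and 2183 in those 6 libraries, against 4135.

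Levels can be set against each other between genes only per length. In Control, CPM per kb of the canonical transcript (GENCODE v44) was highest for NPC2 (169), ACLY and ELOVL1 (130 each) and FDPS (105). It was lowest among the expressed genes for MYLIP (0.384), ACACB (0.451) and ABCA1 (2.35). In Soft ACLY was at 71.9, FDPS at 69.7 and ABCA1 at 6.32 CPM per kb.

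Further genes of the same pathways were counted by list. Of 19 other sterol genes 18 were tested, and in Soft 4 were higher and 3 lower, with a median log2 fold change of 0.27. Of 24 other fatty acid genes 22 were tested, and in Soft 2 were higher and 7 lower, with a median of -0.26. The shares that passed were 38.9% and 40.9% of the tested genes of the lists. Over all tested genes 30.6% passed in Soft, 15.8% higher and 14.8% lower. None of either list passed in sh_PIP4K2B with edgeR, where 5.54% of all tested genes passed, and the medians there were -0.03 and -0.14. At an unadjusted p under 0.05 (edgeR) 5 sterol and 2 fatty acid genes of these lists would count in sh_PIP4K2B. The share of all tested genes at that p was not counted. DESeq2 called 3 and 2 of the lists, where it called 2066 of all 13784 tested genes. Some genes of these lists, among them the 4 described next, were picked after their values were seen. Others went the other way in Soft. The 3 sterol genes called lower were NCEH1 (-1.31), TMEM97 (-1.29) and SOAT1 (-1.10, log2 fold change, edgeR). The 2 fatty acid genes called higher were TECR (0.95) and ACSS2 (0.94). NR1H3, which encodes an LXR receptor, was at 2.29 ± 0.442 CPM in Control, 2.23 ± 0.774 in sh_PIP4K2B and 9.52 ± 0.679 in Soft (SD, n = 3; log2 fold change in Soft 2.06, edgeR adjusted p = 2.4e-04). CYP27A1, which makes an oxysterol, was at 1.42 ± 0.322 CPM in Control and 11.5 ± 0.597 in Soft (SD, n = 3). HACD1 and HACD2, the dehydratases of the elongation cycle, had log2 fold changes of -1.77 and -2.01 in Soft (edgeR adjusted p = 1.4e-05 and 7.7e-05).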

How the data were processed

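Paired reads of 75 nt from stranded mRNA libraries were aligned by the authors to GRCh38/hg38 with STAR, and the deposited table holds estimated counts per gene, unscaled and with no libraries pooled. The submitters' processing notes also name Salmon. The annotation used for counting and its use of strand were not given in the sources used here. The counts were rounded, since 12.3% were fractional.

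Genes were tested with edgeR 4.0.16 (R 4.3.3, TMM scaling, genes kept by filterByExpr, quasi-likelihood test). All 9 libraries entered 1 model, and p-values were adjusted by Benjamini and Hochberg's method over 13784 genes, with the threshold of 0.01 that the study used. The SE was taken from the F statistic, and the script was tested on simulated data. Replicates per condition were 3. Alternatives were no filter, a minimum of 10 counts in every library, upper quartile or library size scaling, DESeq2 1.42.0, a fit of the 6 libraries compared, the replicate number as a block, each library left out, and a threshold of 0.05. All members were named, by role, with values per library for those past 0.01 in sh_PIP4K2B and for the 2 highest and 2 lowest in Soft. Other members with values per library, such as IDI1, FASN and SCD, were chosen outside that rule. Members and lists were chosen with earlier results of these data known. Some counts are shared between overlapping or similar genes, and DNA was read from RefSeq promoters.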

Additional observations from a re-analysis of the deposited data

Results flagged for a closer look

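ACACB differed between the conditions in direction. It was below Control in sh_PIP4K2B and above Control in Soft, and the test of Soft against sh_PIP4K2B gave a log2 difference of 1.69 (SE 0.17, adjusted p = 9.9e-05, edgeR). All 3 hairpin libraries were below and all 3 Soft libraries above the Control libraries. With 3 libraries per condition no check for a library far from its group was made.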

How the results depend on the processing

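The number of lipid genes past 0.01 in sh_PIP4K2B (4) was 10 with DESeq2, 0 in a fit of the 6 libraries compared, 1 with the replicate block and 10 at a threshold of 0.05, and ran from 0 to 12 with 1 library left out. In Soft (19) it was 38 in a fit of the 6 libraries, and ran from 9 to 28 with 1 library left out. In Soft against sh_PIP4K2B (17) it was 8 in a fit of the 6 libraries, and 8 to 22 with 1 library left out. The other alternatives kept these counts within 1.5 times, and the cause of the differences was not tested. Fits of other libraries estimate the spread anew. Over all tested genes the count in sh_PIP4K2B was 763, against 2066 with DESeq2, 5 in the 6 libraries and 295 with the replicate block. It was 2375 at a threshold of 0.05 and 66 to 2013 with 1 library left out. In Soft it was 4217, against 5447 with DESeq2, 9601 in the 6 libraries, 6498 at a threshold of 0.05 and 2506 to 6373 with 1 left out. In Soft against sh_PIP4K2B it was 4135, against 2183 in the 6 libraries and 2350 to 5374 with 1 left out.

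With scaling by library size only, the median log2 fold change of all genes was 0.14 in sh_PIP4K2B and 0.12 in Soft, against 0.05 and 0.01 with TMM, and those of the lipid genes were -0.06 and -0.41. SQLE (0.07) and NSDHL (0.037) turned positive in sh_PIP4K2B with it. In all, 25 values in 20 of 123 pairs of gene and comparison turned sign, none of them past 0.01 and none in the 40 pairs that had passed. With 1 library left out, the log2 fold change turned sign in sh_PIP4K2B for HMGCS1 (-0.16 to 0.53), FDFT1 (-0.27 to 0.016), SQLE (-0.31 to 0.20), CYP51A1 (-0.13 to 0.48), NSDHL (-0.17 to 0.041), SC5D (-0.098 to 0.44), SREBF1 (-0.26 to 0.15), SREBF2 (-0.039 to 0.30), SCAP (-0.18 to 0.16), STARD4 (-0.014 to 0.65), NPC2 (-0.27 to 0.005) and ACSL4 (-0.029 to 0.35). In Soft against sh_PIP4K2B it did so for TM7SF2 (-0.38 to 1.12), DHCR7 (-0.56 to 0.14), SREBF2 (-0.10 to 0.22), NPC1 (-0.092 to 0.15), ABCA1 (-0.43 to 0.072), SCD (-0.12 to 0.61), ELOVL5 (-0.13 to 0.27) and LPIN1 (-0.023 to 0.65).

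No pairing of the libraries by replicate number was seen, though with 3 libraries per condition this check cannot exclude it. The correlation of deviations between libraries of the same number ran from -0.12 to 0.04, and Soft libraries 1, 2 and 3 correlated best with Control libraries 3, 1 and 1. With the replicate block ELOVL6 alone passed in sh_PIP4K2B, and the Soft count was 17.

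Precision is limited by 3 libraries per condition, the spread between hairpins and, for MYLIP and ACACB, low counts.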
